A study of Mus musculus with 6 samples.

Results

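The MYC, MAX and MXD network was described here by 10 genes, Myc, Mycn, Max, Mxd1, Mxd3, Mxd4, Mxi1, Mnt, Mlx and Mga. They were represented by the 26 probe sets that the platform annotation pairs with exactly 1 gene of this list, out of 45037 probe sets other than controls and 18193 genes named in this way. The samples were 3 of Ba/F3-N cells given 1 µM N-arachidonoyl dopamine (NADA) for 12 hours and 3 of Ba/F3-N cells given an equal volume of vehicle for 12 hours. Ba/F3-N is a mouse bone marrow-derived line transformed with the oncogenic G12D form of NRAS, which both groups carried, and NADA is a lipid mediator, an amide of dopamine with arachidonic acid, known to act on cannabinoid and vanilloid receptors. RNA of each sample was hybridised to 1 Affymetrix Mouse Genome 430 2.0 array. The labels do not say whether the replicates were separate cultures, and the spread that p-values rest on here may therefore be technical. They also give neither a clone number nor a batch.

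MYC and MYCN are transcription factors that bind DNA as dimers with MAX, at the E-box CACGTG, and activate genes of ribosome production, nucleotide synthesis and the cell cycle. The MXD proteins (MXD1, MXI1, MXD3 and MXD4) and MNT also dimerise with MAX, bind the same sites and recruit the SIN3 corepressor with histone deacetylases. MXD proteins are known for replacing MYC on MAX as blood cells stop dividing and differentiate, with MXD3 as the member found in dividing cells. MLX, a relative of MAX, pairs with the glucose-responsive factors MondoA and ChREBP and with some MXD proteins, and MGA joins MAX in a Polycomb complex, PRC1.6, that silences germline genes.

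The promoter windows of 4 members are shown because they hold the E-box letters that all dimers of the network recognise. Each runs from 250 bases before to 50 bases from the annotated start site on, 5′ to 3′ on the gene's strand, from RefSeq on GRCm38.p6, with CACGTG in capitals. The motif equals its own reverse complement, so 1 search covers both strands. The window of Mxd4 is chr5:34187661-34187960 (minus strand), of Mnt chr11:74830674-74830973 (plus), of Mlx chr11:101087040-101087339 (plus) and of Max chr12:76962199-76962498 (minus).
Mxd4: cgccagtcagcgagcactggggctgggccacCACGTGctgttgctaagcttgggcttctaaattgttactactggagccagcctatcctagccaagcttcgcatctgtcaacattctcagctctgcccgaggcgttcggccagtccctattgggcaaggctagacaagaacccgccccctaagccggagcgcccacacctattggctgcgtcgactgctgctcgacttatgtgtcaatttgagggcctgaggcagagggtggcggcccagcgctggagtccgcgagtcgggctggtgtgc
Mnt: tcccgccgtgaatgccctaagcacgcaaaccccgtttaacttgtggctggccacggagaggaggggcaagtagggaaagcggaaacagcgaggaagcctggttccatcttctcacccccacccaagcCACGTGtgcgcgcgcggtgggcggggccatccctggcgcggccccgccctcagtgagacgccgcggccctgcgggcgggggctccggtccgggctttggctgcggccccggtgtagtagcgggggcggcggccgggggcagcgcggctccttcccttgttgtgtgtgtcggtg
Mlx: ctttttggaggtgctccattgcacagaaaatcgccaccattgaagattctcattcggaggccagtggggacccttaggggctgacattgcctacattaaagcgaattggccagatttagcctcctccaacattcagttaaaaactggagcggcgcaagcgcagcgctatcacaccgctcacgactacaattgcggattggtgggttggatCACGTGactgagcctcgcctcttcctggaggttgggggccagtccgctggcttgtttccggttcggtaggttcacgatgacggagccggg
Max: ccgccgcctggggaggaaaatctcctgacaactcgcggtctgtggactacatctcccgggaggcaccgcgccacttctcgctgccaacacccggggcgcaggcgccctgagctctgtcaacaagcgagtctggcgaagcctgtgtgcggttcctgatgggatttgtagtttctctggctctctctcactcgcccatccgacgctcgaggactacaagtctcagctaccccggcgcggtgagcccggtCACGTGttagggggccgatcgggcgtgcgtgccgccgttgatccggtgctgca
The motif begins 219 bases before the start site in Mxd4, 123 in Mnt, 40 in Mlx and 3 in Max. Windows were found for 9 members, all except Myc, and 4 of these 9 (44.4%) held the letters. Across the table, 7.15% of 32851 windows of this length held them, and 12.0% of 8577 tested genes that had a window. The windows of Mycn, Mxd1, Mxd3, Mga and the 3 start sites of Mxi1 held none.

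With the values as deposited, the MXD-type antagonist Mxd4 was higher in NADA-treated cells by a factor of 3.99, while Myc was lower by a factor of 1.26 and its partner Max by a factor of 1.37. Among the other antagonists Mxd1 and Mxi1 rose, Mxd3 fell on 2 of its 3 probe sets though not on the brightest, and Mnt did not pass the test. Mxd4 was the only member whose 3 tested probe sets stayed higher in NADA on the poly-A scale, which is described next. Mycn fell by a small amount (-0.06) on its brightest probe set and rose on its dimmer ones. By their brightest probe sets, 3 of the 10 genes rose, 4 fell and 3 were not called. Among all 10526 genes tested in the same way 72.2% were called, 35.1% higher and 37.1% lower (limma, adjusted p under 0.05), so these counts by themselves lie near the background. The groups did not overlap in 7 of the 10, against 75.9% of all genes tested.

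The arrays of both groups differed also in their control probe sets. Bacterial poly-A RNAs, which such kits add ahead of the labelling step, averaged a log2 intensity of 8.72 ± 0.21 in NADA and 8.14 ± 0.01 in vehicle (SD, n = 3). The actin control reads the cells' own mouse actin RNA. Its 3′ to 5′ log2 ratio was 1.06 ± 0.05 in NADA and 0.67 ± 0.04 in vehicle. With each array scaled to the bacterial poly-A RNAs, here called the poly-A scale, all log2 fold changes shift by -0.58. Their median over the probe sets tested then stands at -0.57. On that scale 6.33% of probe sets were called higher and 75.7% lower. The spread of the poly-A RNAs between arrays enters every probe set alike there, with a standard error for Myc of 0.13, against 0.04 as deposited. The fit takes this shared error as separate for each probe set, so calls and adjusted p-values on the poly-A scale do not measure the spread of single genes. Of the 22 member probe sets 3 were then called higher and 15 lower, and by brightest probe set 1 of the 10 genes was higher and 7 lower, beside 6.94% and 76.2% of all genes tested. The values as deposited are therefore relative to the bulk of genes, and each member is given below on both scales where its call or its direction differs. The hybridization controls of the arrays averaged a log2 intensity of 10.08 ± 0.05 in NADA and 9.93 ± 0.10 in vehicle (SD, n = 3). The part of the poly-A, hybridization and actin values in the results was not tested. In such bulk samples fewer cells of a type and less RNA per cell cannot be told apart.

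Of the markers of the line and of other cells, the interleukin-3 receptor chain gene Csf2rb stood at 3337 in NADA and 990.0 in vehicle. Il3ra, for another chain, was dimmer, at 152 in NADA and 106 in vehicle. Of the 13 markers of the line and of early B cells 6 lay above the dim limit of 38.6, used as the filter. Of these 5 rose and 0 fell, beside 35.1% higher and 37.1% lower among all genes tested, the background for each marker count. Sums over the 13 were 13771 to 13847 in NADA and 5973 to 6211 in vehicle, mostly from Ptprc, Csf2rb2 and Csf2rb (6449, 3574 and 3337 in NADA). Log2 fold changes as deposited were 2.35 for Csf2rb2, 1.75 for Csf2rb, 0.68 for Ptprc, 0.51 for Il3ra, 0.46 for Cd79b and 0.19 for Igll1. The poly-A shift of -0.58 would turn the last 3 negative. The markers Pax5, Ebf1, Rag1, Cd79a, Vpreb1, Kit and Cd24a lay under the limit. Of the macrophage and neutrophil markers 3 of 6 lay above the limit, of which 2 rose and 0 fell, and their summed intensity was 600 to 613 in NADA and 322 to 348 in vehicle. All 3 erythroid markers that had a probe set rose, with sums of 437 to 477 in NADA and 170.5 to 177 in vehicle. Rhag, of the Rh complex, stood at 168 in NADA and 13.1 in vehicle. Its vehicle value lay under the dim limit, so Rhag passed the filter only through its NADA values. Of the T and natural killer cell markers 2 of 5 lay above the limit and 1 rose, with sums of 174 to 179 in NADA and 160.1 to 178 in vehicle. Of those of fibroblast, epithelial and endothelial cells 2 of 8 did and 1 fell, with sums of 265 to 287 in NADA and 286 to 294 in vehicle. No marker averaged 0, although Cd3g, Cd14, Mpo, Elane, Col1a1, Cdh5 and Krt18 were under the dim limit, and the part of these markers in the results below was not tested.

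Of the 26 member probe sets 22 passed the filter, which asks for a mean intensity over all arrays at or above the median of all probe sets. At least 1 probe set of each gene passed. Of the 22, 9 were higher in NADA, 8 lower and 5 not called, beside 34.4% higher, 36.2% lower and 70.6% called either way among all 22519 probe sets tested. The groups did not overlap in 19 of the 22, against 73.7% of all probe sets tested. The median log2 fold change of the 22 was 0.04, and over all probe sets tested it was 0.00. The 4 dim probe sets, 1 of Mxd4, 1 of Mnt and 2 of Mga, took no part in the test.

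**Figure D1:**
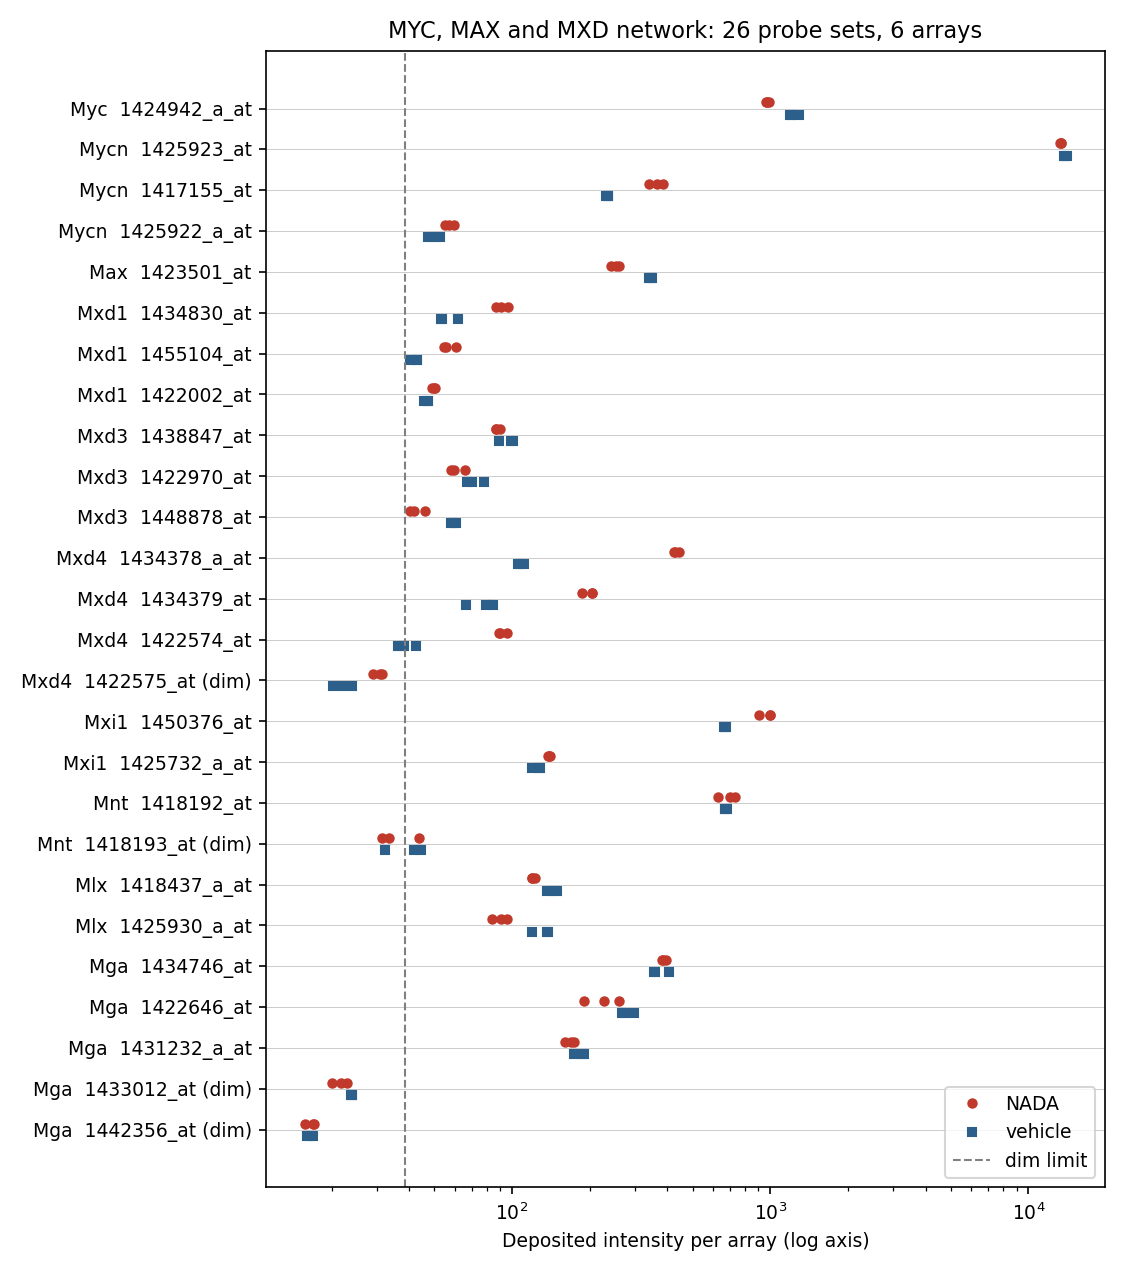
Deposited intensity (log axis) of the 26 probe sets on each of the 6 arrays, with NADA as circles above vehicle as squares, and the dim limit of 38.6 as a dashed line. The 3 NADA values of each Mxd4 probe set lie right of the 3 vehicle values, whereas those of Myc and Max lie left of them.

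Myc, the founding member, was measured by 1 probe set, 1424942_a_at. Its intensity on the 3 arrays of each group was 973, 959 and 986 in NADA, against 1203, 1289 and 1193 in vehicle. The groups did not overlap, and every NADA value was below every vehicle value. Myc fell with a log2 fold change of -0.34 ± 0.04 (standard error of the limma fit, 3 arrays per group), and the adjusted p was 3.37e-06. Of all probe sets tested, 74.5% had a higher log2 fold change than Myc. On the poly-A scale the log2 fold change was -0.91.

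The 3 genes that moved most like Myc, by the root mean square distance over the 6 arrays after subtracting each vehicle mean, were Tiam2 (0.016 on the log2 scale), Cct3 (0.019) and Hdac1 (0.026). Tiam2, an exchange factor for RAC, averaged 49.5 ± 1.1 in NADA and 62.8 ± 1.8 in vehicle (SD, n = 3). Cct3, a subunit of the cytosolic chaperonin, averaged 3701 ± 94.5 in NADA and 4652 ± 167 in vehicle. Hdac1, the histone deacetylase of the SIN3 complex, averaged 389 ± 3.4 in NADA and 497 ± 7.4 in vehicle.

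Mycn, the paralogue best known from neural progenitors and neuroblastoma, was measured by 3 probe sets that did not move together. The brightest, 1425923_at, read 13404, 13236 and 13355 in NADA and 13825, 14056 and 13680 in vehicle, brighter than 99.9% of all probe sets on the arrays. It was lower by a small amount, with a log2 fold change of -0.06 ± 0.02 and an adjusted p of 0.0260, and the fit without an intensity trend did not call it (adjusted p = 0.257). Nor was it called without NADA replicate 2 (adjusted p = 0.103), vehicle replicate 1 (adjusted p = 0.0505) or vehicle replicate 2 (adjusted p = 0.108). With quantile normalization the log2 fold change was -0.08 and with median centring -0.09.

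The second probe set of Mycn, 1417155_at, read 338, 365 and 385 in NADA and 234, 236 and 231 in vehicle, so every NADA value was higher. It rose by 0.63 ± 0.05 (adjusted p = 1.88e-07) and stood at 0.05 (adjusted p = 0.691) on the poly-A scale. The third, 1425922_a_at, read 59.6, 55.1 and 57.0 in NADA and 52.5, 47.4 and 50.2 in vehicle. It rose by 0.20 ± 0.08 (adjusted p = 0.0384), was not called without NADA replicate 1 (adjusted p = 0.119), NADA replicate 3 (0.0634), vehicle replicate 2 (0.128) or vehicle replicate 3 (0.0751), and turned to -0.38 on the poly-A scale. With 32 added before log2 it was 0.12. Mycn was the 1 member of the 7 with several tested probe sets that was called in both directions, which happened in 4.94% of the 4858 genes with several passing probe sets. The labels do not say which transcripts these probe sets detect.

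Max, the partner that MYC and the MXD proteins compete for, was measured by 1423501_at at 253, 261 and 242 in NADA and 348, 346 and 338 in vehicle. All 3 NADA values lay below all 3 vehicle values. Max fell by 0.45 on the log2 scale, with a standard error of 0.05 and an adjusted p of 1.88e-06, and the log2 fold change was -1.03 on the poly-A scale. Within arrays its change less that of Myc was -0.11, and the groups overlapped (two-sided exact permutation test, p = 0.2).

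Mxd4, an antagonist described in cells that have left the cell cycle, had the largest difference of the network. On its brightest probe set, 1434378_a_at, the intensity was 441, 428 and 423 in NADA and 108, 111 and 105 in vehicle. The lowest NADA value was well above the highest vehicle value. The gene rose by 2.00 ± 0.05 on the log2 scale (adjusted p = 1.72e-12), which placed this probe set at rank 121 of 22519 from the top. Measured on the poly-A scale the log2 fold change was 1.42.

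The other Mxd4 probe sets were higher too, by less. Probe set 1434379_at read 204, 204 and 186 in NADA and 79.5, 84.5 and 66.4 in vehicle (log2 fold change 1.37 ± 0.09, adjusted p = 6.45e-09). Probe set 1422574_at read 89.2, 89.7 and 95.4 in NADA and 42.5, 38.0 and 36.1 in vehicle (1.24 ± 0.08, adjusted p = 1.19e-08). Both kept their call on the poly-A scale, with log2 fold changes of 0.80 and 0.66. The vehicle values of 1422574_at lay around the dim limit. With 32 added before log2 its log2 fold change was 0.80.

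The 3 genes that moved most like Mxd4 were Vwa5a (distance 0.052), Trim30a (0.055) and Herpud1 (0.055). Vwa5a averaged 1869 ± 41.7 in NADA and 474 ± 8.0 in vehicle (SD, n = 3). Trim30a, an interferon-inducible TRIM protein gene, averaged 1098 ± 25.4 in NADA and 277 ± 7.9 in vehicle. Herpud1, which acts in the degradation of proteins of the endoplasmic reticulum, averaged 1845 ± 106 in NADA and 451 ± 8.8 in vehicle.

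Mxd1, the MXD member induced during terminal differentiation of myeloid cells and keratinocytes, was higher on 2 of 3 probe sets. On 1434830_at it read 90.5, 96.6 and 86.9 in NADA and 61.8, 53.3 and 53.4 in vehicle. The groups were clearly apart, and Mxd1 rose by 0.70 ± 0.08 on the log2 scale (adjusted p = 3.52e-06). Probe set 1455104_at read 60.5, 55.3 and 54.7 in NADA and 43.0, 42.9 and 40.2 in vehicle (0.43 ± 0.08, adjusted p = 2.64e-04), and stood at 0.26 with 32 added before log2 and 0.18 with a floor of 50. The dimmest, 1422002_at, read 49.7, 48.8 and 50.1 in NADA and 45.7, 47.5 and 47.3 in vehicle, and its log2 fold change of 0.08 was not called (adjusted p = 0.344, 95% interval -0.08 to 0.24). On the poly-A scale they stood at 0.13 (adjusted p = 0.406), -0.14 (adjusted p = 0.393) and -0.50 (adjusted p = 0.00254), so that the direction of Mxd1 depends on the scale.

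Mxi1, also called MXD2, is a tumour suppressor candidate that FOXO and hypoxia-inducible factors are known to activate. On 1450376_at it read 997, 995 and 903 in NADA and 667, 676 and 662 in vehicle. NADA values were all higher, and the gene rose by 0.53 ± 0.04 on the log2 scale (adjusted p = 1.29e-07). Probe set 1425732_a_at read 140.4, 138 and 139 in NADA and 128, 119.9 and 128 in vehicle, and rose by 0.15 ± 0.06 (adjusted p = 0.0313). That smaller difference was not called in 4 of the 6 fits that left out 1 array: adjusted p = 0.0702 without NADA replicate 1, 0.0607 without NADA replicate 2, 0.118 without vehicle replicate 2 and 0.0501 without vehicle replicate 3. Measured on the poly-A scale the probe sets turned to -0.05 (adjusted p = 0.714) and -0.42 (adjusted p = 0.00131).

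Mxd3, the antagonist found in S phase, went the other way. On 1448878_at it read 46.0, 41.6 and 40.3 in NADA and 60.9, 57.9 and 59.7 in vehicle, with all NADA values lower (log2 fold change -0.48 ± 0.08, adjusted p = 1.14e-04). With 32 added before log2 it was -0.29 and with a floor of 50 it was -0.25. Probe set 1422970_at read 58.0, 65.5 and 59.6 in NADA and 77.8, 69.8 and 66.8 in vehicle, a narrow gap (-0.23 ± 0.08, adjusted p = 0.0259). It was not called without NADA replicate 1 (adjusted p = 0.0869), NADA replicate 3 (0.0564) or vehicle replicate 1 (0.125), nor with array weights (0.0619). The brightest, 1438847_at, overlapped between the groups at 89.8, 86.7 and 86.9 in NADA and 101, 89.2 and 99.2 in vehicle, and was not called (-0.13 ± 0.07, adjusted p = 0.104), although without vehicle replicate 2 it was (-0.19, adjusted p = 0.0364), and with median centring (-0.17, adjusted p = 0.0471). On the poly-A scale all 3 were called lower, with log2 fold changes from -1.06 to -0.71.

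Mnt, which is made in both dividing and resting cells and opposes MYC in both, did not separate the groups. Probe set 1418192_at read 727, 697 and 627 in NADA and 665, 680.3 and 666 in vehicle. The NADA values lay on both sides of the vehicle values, with a log2 fold change of 0.03 ± 0.05 (adjusted p = 0.670, 95% interval -0.09 to 0.14). Quantile normalization of the arrays called it higher (0.11, adjusted p = 0.0477). Measured on the poly-A scale it was -0.55 (adjusted p = 1.49e-05), close to the shift of the median gene. The dim probe set 1418193_at read 33.4, 43.7 and 31.5 in NADA and 44.3, 32.3 and 41.8 in vehicle.

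Mlx, the partner of the MondoA arm, fell on both of its probe sets. Probe set 1418437_a_at read 123, 119 and 119.7 in NADA and 149.9, 137 and 144 in vehicle (-0.25 ± 0.06, adjusted p = 0.00211). Probe set 1425930_a_at read 83.4, 90.8 and 95.5 in NADA and 138, 119 and 137 in vehicle (-0.55 ± 0.08, adjusted p = 2.72e-05). In both, every NADA value was below every vehicle value, and on the poly-A scale the log2 fold changes were -0.83 and -1.12.

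Mga, the scaffold of PRC1.6 that carries a T-box besides its MAX-binding domain, gave unequal probe sets. The brightest, 1434746_at, read 396, 382 and 384 in NADA and 357, 356 and 406 in vehicle, which overlap (0.06 ± 0.06, adjusted p = 0.384, 95% interval -0.06 to 0.18). Probe set 1422646_at read 259.8, 228 and 189 in NADA and 275, 266 and 298 in vehicle, and fell with a log2 fold change of -0.32 ± 0.09 (adjusted p = 0.00700). The spread of its NADA values was wide, and without NADA replicate 3 the log2 fold change was -0.20. Probe set 1431232_a_at read 161, 173 and 169 in NADA and 186, 173 and 190.1 in vehicle, and its log2 fold change of -0.13 ± 0.06 was not called (adjusted p = 0.0730), except without vehicle replicate 2 (-0.17, adjusted p = 0.0421) and with median centring (-0.16, adjusted p = 0.0281). On the poly-A scale all 3 were called lower, with log2 fold changes from -0.90 to -0.52. The dim probe sets 1433012_at and 1442356_at averaged 21.6 and 16.6 in NADA and 24.0 and 16.6 in vehicle.

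**Figure D2:**
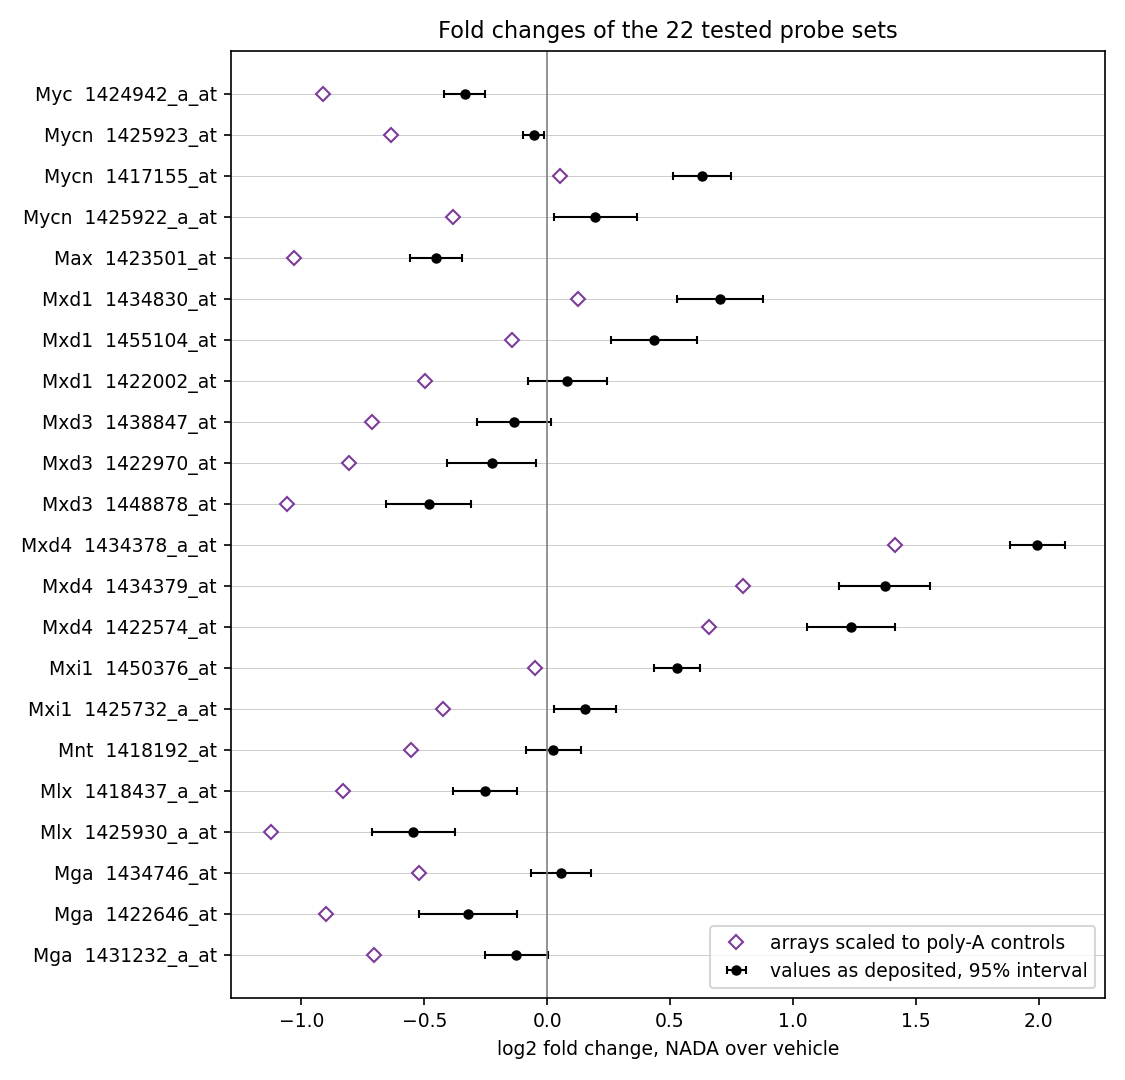
Log2 fold change, NADA over vehicle, of the 22 tested probe sets, as deposited (filled circles with 95% intervals of the limma fit) and on the poly-A scale (open diamonds). As deposited 9 were called higher, and on the poly-A scale the 3 probe sets of Mxd4 were.

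**Figure D3:**
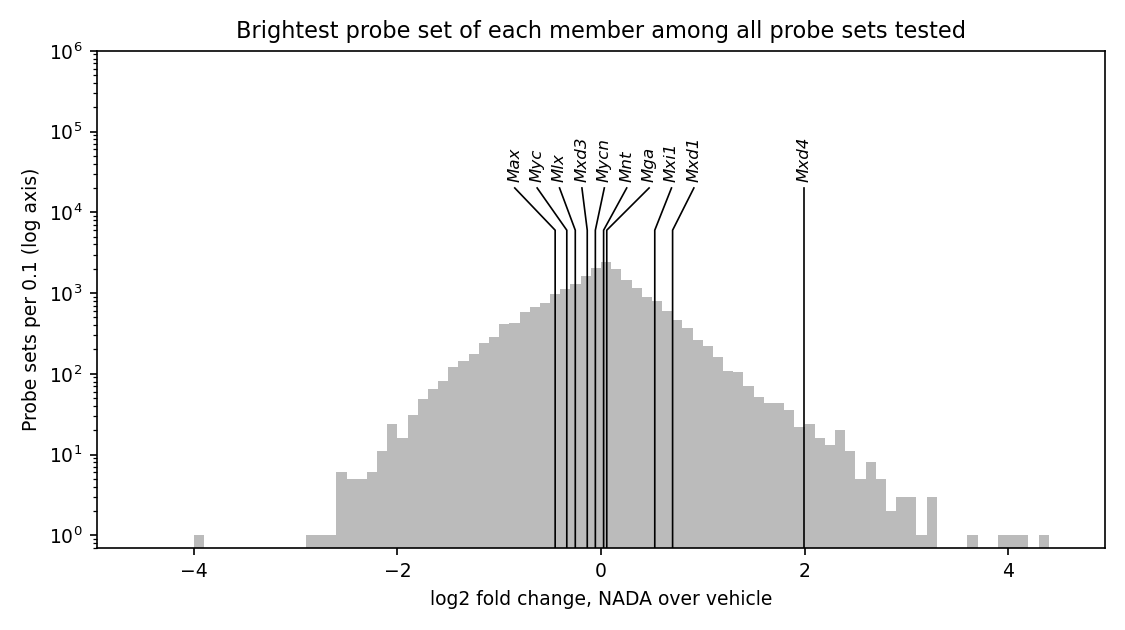
Histogram of the log2 fold change, NADA over vehicle, of the 22519 probe sets tested (number per bin of 0.1 on a log axis), with a line at the brightest probe set of each member. Mxd4 lies at 2.00 in the upper tail, where 0.533% of probe sets are higher, and the other 9 members lie between -0.45 and 0.70.

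The study's samples allow MYC to be contrasted with its antagonists in a way that no scaling factor for whole arrays can move, by the log2 value of a gene minus the log2 value of Myc within the same array. This shows unequal change only, since probe sets differ in brightness. For Mxd4 the difference was -1.14, -1.17 and -1.22 in NADA and -3.48, -3.54 and -3.51 in vehicle. The antagonist thus gained 2.33 ± 0.03 on Myc on the log2 scale (standard error, 3 arrays per group), a factor of 5.03. For Mxd1 the difference was -3.43, -3.31 and -3.50 in NADA and -4.28, -4.60 and -4.48 in vehicle, a gain of 1.04 ± 0.11. For Mxi1 it was 0.04, 0.05 and -0.13 in NADA and -0.85, -0.93 and -0.85 in vehicle, a gain of 0.86 ± 0.06.

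The remaining members gained less or lost. Mga gained 0.39 ± 0.09 on Myc, Mnt 0.36 ± 0.08, Mycn, by its brightest probe set, 0.28 ± 0.03 and Mxd3 0.20 ± 0.09. Their order and size rest on the probe set used, since with a gene's passing probe sets averaged Mycn gained 0.59, Mga 0.21 and Mxd3 0.05. With quantile normalization, which is no common factor, Mycn gained 0.17 and Mxd3 0.11, and without vehicle replicate 2 Mxd3 gained 0.11. Averaged in that way Mxd4 gained 1.87, Mxd1 0.74 and Mxi1 0.68. By brightest probe set, in these 4 and in Mxd4, Mxd1 and Mxi1 all NADA values were above all vehicle values, where the exact permutation test (two-sided) gives p = 0.1, the smallest that 3 against 3 arrays allow (adjusted p = 0.129 over the 9 genes compared). No pair could therefore pass a threshold of 0.05. Mlx (0.08 ± 0.07, exact permutation p = 0.3) and Max (-0.11 ± 0.05, exact permutation p = 0.2) had overlapping groups.

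**Figure D4:**
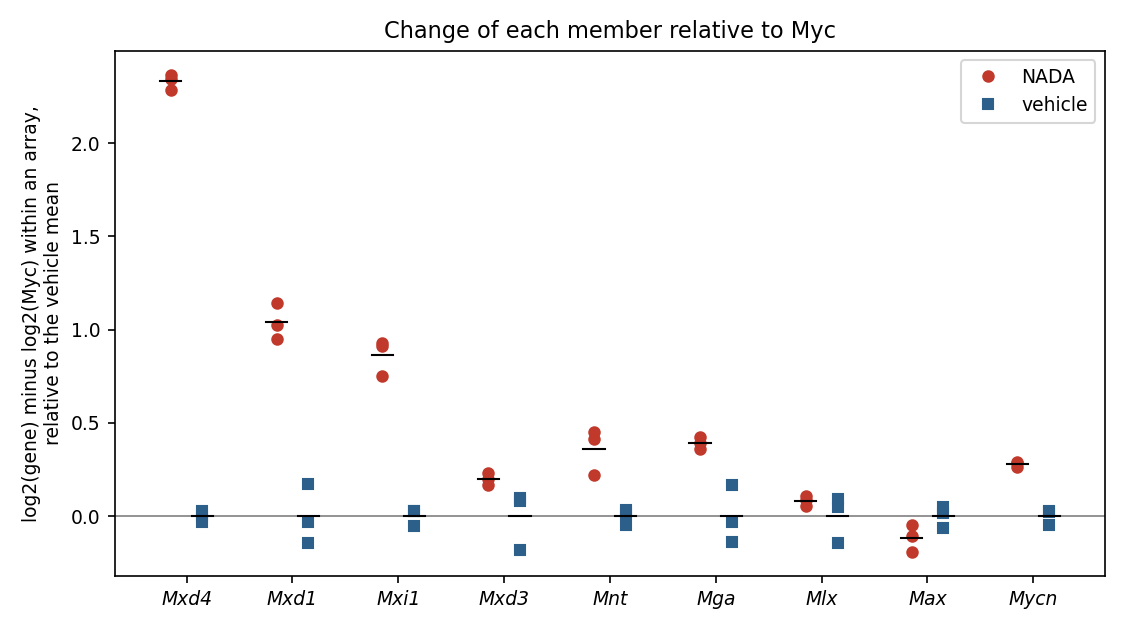
Log2 value of the brightest probe set of each member minus that of Myc within each array, shown relative to the vehicle mean, with NADA as circles left of vehicle as squares and bars at group means. Mxd4 is 2.33 higher in NADA, Mxd1 1.04 and Mxi1 0.86, while Mlx and Max overlap between the groups.

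Genes that work with the network were read from the same fit by their brightest probe set. Their lists were chosen by textbook role, but with earlier results of these data known, so the list counts are descriptions and no independent support. Among all genes tested the median log2 fold change was 0.01, with 35.1% called higher and 37.1% called lower, which is the background for each list count. In the MYC family beyond the members, Bmyc, a rodent relative without the DNA-binding part, fell to 136 ± 9.9 in NADA, against 195 ± 3.6 in vehicle (SD, n = 3). Mycl (28.3 in NADA and 26.7 in vehicle) and Mycs (10.5 in NADA and 11.3 in vehicle) were dim. In the MLX arm, Mlxip, which encodes MondoA, rose by 0.46 ± 0.05 (adjusted p = 3.51e-06), and turned to -0.12 (adjusted p = 0.371) on the poly-A scale, while Mlxipl, which encodes ChREBP, was dim (25.6 in NADA and 24.7 in vehicle). Txnip, a thioredoxin-binding arrestin and MondoA target, rose to 2399 ± 45.3 in NADA, against 1251 ± 44.3 in vehicle, and its relative Arrdc4 was dim (18.5 in NADA and 18.8 in vehicle).

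MYC coactivators were mostly lower. Of 10 tested 7 fell and 1 rose, beside 37.1% lower and 35.1% higher among all genes, with a median log2 fold change of -0.53. The histone acetyltransferase Kat2a fell to 163 ± 8.0 in NADA, against 520 ± 3.7 in vehicle, and Wdr5, which helps MYC to hold on to chromatin, to 438 ± 30.9 in NADA, against 1149 ± 14.7 in vehicle. The ATPases Ruvbl1 and Ruvbl2, of the TIP60 and INO80 complexes, fell with log2 fold changes of -1.10 ± 0.04 and -1.19 ± 0.06. The 1 that rose, named after its values were seen, was the scaffold Trrap (0.71 ± 0.04), which was not called on the poly-A scale (0.14, adjusted p = 0.291).

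Corepressors of the MXD proteins and MNT were mostly lower as well. Of 11 tested 8 fell and 2 rose, beside 37.1% lower and 35.1% higher among all genes, with a median of -0.31. The deacetylase Hdac2 fell to 782 ± 48.6 in NADA, against 1371 ± 46.5 in vehicle. The histone chaperone Rbbp7 (-0.65 ± 0.03), Ing2, which reads histone methylation for the SIN3 complex (-0.49 ± 0.05), and Sap30, another SIN3 subunit (-0.31 ± 0.04), fell too. Sin3b (0.14) and Sap130 (0.20) rose, both named after their values were seen, and turned to -0.44 and -0.37 on the poly-A scale. With quantile normalization Sin3b stood at 0.22. Sap130 was not called without NADA replicate 1, NADA replicate 2 or vehicle replicate 2 (adjusted p from 0.0501 to 0.0767).

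Of 9 subunits of the PRC1.6 complex around MGA and MAX, 7 fell and 1 rose, with a median of -0.73. Among all genes 37.1% were lower and 35.1% higher. Tfdp1, the dimer partner of E2F6, fell to 713 ± 16.4 in NADA, against 2114 ± 15.7 in vehicle, and the Polycomb ring finger gene Pcgf6, which defines the complex, to 596 ± 16.7 in NADA, against 1212 ± 20.0 in vehicle. Yaf2 fell by 0.79 ± 0.03 on the log2 scale and Wdr5, which stands in both lists, by 1.39. The subunit that rose, named after its values were seen, was the ubiquitin ligase Rnf2 (0.24), at -0.34 on the poly-A scale. The 13 germline genes that PRC1.6 is known to silence in mouse embryonic stem cells were all under the dim limit, from 3.16 to 17.4 in NADA and from 3.17 to 16.5 in vehicle, so that none was tested. Of the 12 with a promoter window 9 (75.0%) held CACGTG.

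Genes that set the lifetime of the MYC protein split, with 11 of 17 lower, 4 higher and a median of -0.24, beside 37.1% lower and 35.1% higher among all genes. The 4 that were higher, named after their values were seen, were the deubiquitinase Usp22 (0.62), the ligase subunit Btrc (0.50), the phosphatase subunit Ppp2r5a (0.22) and the kinase Gsk3b (0.10). None was called higher on the poly-A scale, where they stood at 0.04, -0.08, -0.36 and -0.48. Gsk3b was not called without NADA replicate 1, NADA replicate 2 or any 1 of the 3 vehicle replicates (adjusted p from 0.0577 to 0.103). Skp2, a ubiquitin ligase subunit that both degrades MYC and serves it as a cofactor, fell to 159 ± 13.0 in NADA, against 643 ± 10.1 in vehicle, a log2 fold change of -2.02 ± 0.06. The ligase Stub1 (-0.77 ± 0.04), Fbxw7, the ligase that reads phosphorylated MYC (-0.77 ± 0.05), and the mitotic kinase Plk1 (-0.63 ± 0.05) fell as well.

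Genes known to be activated by MYC through E-boxes were lower throughout. All 29 tested fell, beside 37.1% called lower among all genes. Their log2 fold changes ran from -2.39 to -0.30 around a median of -1.28. Srm, spermidine synthase, fell to 280.0 ± 13.2 in NADA, against 1470 ± 19.4 in vehicle, and Nolc1 (-2.37), Nop56 (-1.77) and Pa2g4 (-1.54), genes of the nucleolus and of growth control, fell too. On the poly-A scale all 29 were again called lower, as were 9 of the 10 coactivators, all 11 corepressors, all 9 PRC1.6 subunits and 15 of the 17 turnover genes, beside 76.2% of all genes tested. Apart from the E-box targets these lists hold few genes, and none of their counts lies far from that background. Of 25 E-box targets with a promoter window 5 (20.0%) held CACGTG within it. In the list of MYC-repressed genes and MIZ1, the partner through which MYC represses, 6 of 10 genes were tested. Of these 6, 4 were higher and 1 lower, beside 35.1% higher and 37.1% lower among all genes, and the median log2 fold change was 1.13. Ndrg2, Cebpa, Cd9 and Thbs1 were dim, with log2 fold changes from 0.04 to 0.14. Gadd45a, a stress gene, rose to 683 ± 90.2 in NADA, against 135 ± 4.2 in vehicle, and the CDK inhibitor gene Cdkn1b to 1567 ± 65.3 in NADA, against 716 ± 62.7 in vehicle. Ndrg1, a stress-responsive gene (1.23 ± 0.04), and the CDK inhibitor gene Cdkn1a (1.12 ± 0.04) rose too. Measured on the poly-A scale all 4 were called higher, Gadd45a at 1.75, Cdkn1b at 0.55, Ndrg1 at 0.65 and Cdkn1a at 0.54. The gene that fell, named after its values were seen, was Cdkn2b (-0.31, and -0.20 with 32 added before log2). The MIZ1 gene itself, Zbtb17, likewise named after its values were seen, was not called (-0.10, adjusted p = 0.174).

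**Figure D5:**
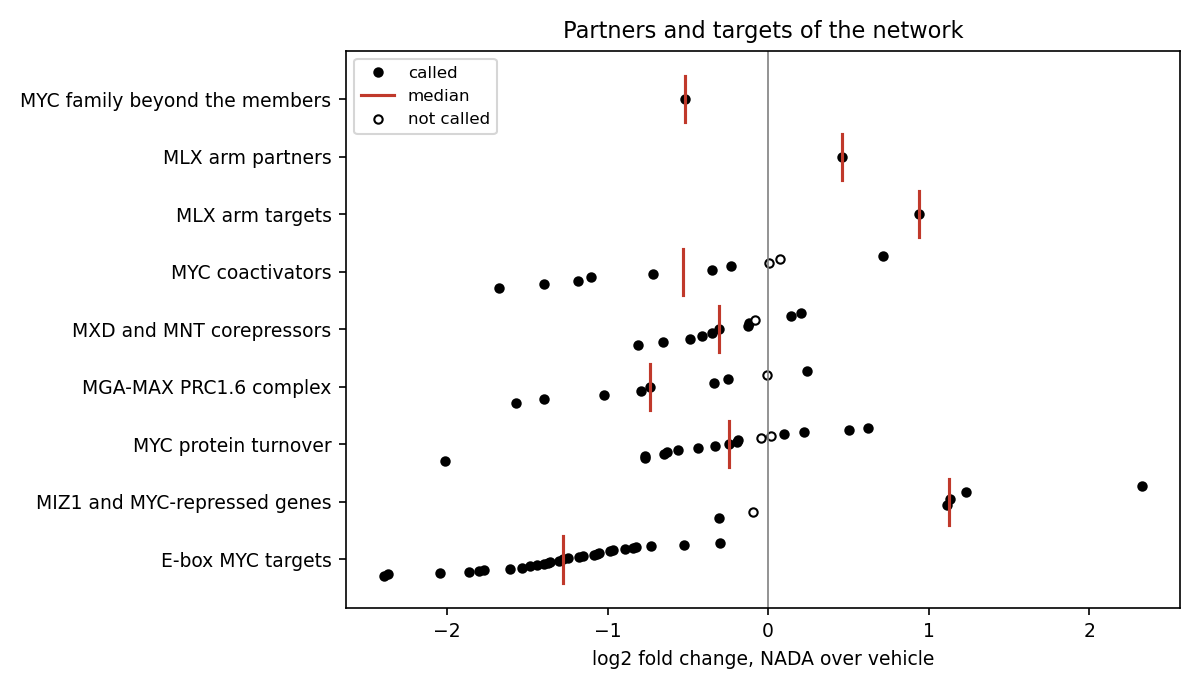
Log2 fold change, NADA over vehicle, of each tested gene in the lists of partners and targets, filled where called by limma at an adjusted p under 0.05 and open where not, with a bar at the median. The E-box targets all lie left of 0 with a median of -1.28, and 4 of the 6 genes of the MIZ1 list lie near or above 1.12.

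The E-box letters were also counted in the promoter windows of all called genes. CACGTG stood in the window of 13.0% of 3224 genes called lower and 11.7% of 3034 called higher. Among genes at least 2-fold apart it stood in 15.4% of 521 lower and 10.9% of 422 higher genes. These shares are descriptions of the letters in the windows, without a test.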

How the data were processed

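The authors deposited 1 linear intensity per probe set and array, from 2.19 to 20113. Per the submitters' processing notes MAS5 and RMA were used, with neither a role nor a version given. Array medians lay close together, at 38.9 to 39.1 in NADA and 37.9 to 38.1 in vehicle, and log2 of the deposited intensity was used with no further scaling, so that fold changes are relative to the bulk of genes. Of 45101 probe sets 64 controls were left out. Of the other 45037, 34945 had 1 gene in the annotation, 932 several and 9160 none. Probe sets with a mean (of log2) intensity under 38.6, the median, were left out, which kept 22519, and 10526 genes were read by their brightest. Fits used limma 3.58.1 in R 4.3.3 (intensity trend, group as the only term, two-sided), with Benjamini-Hochberg adjustment over all probe sets tested and a call at an adjusted p under 0.05. Rose and fell are used of called probe sets. Standard errors (±) of log2 fold changes are those of the fit, and ± beside intensities is the SD. A genome was not used, and promoter windows come from RefSeq (GRCm38.p6).

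Members and lists were chosen with earlier results of these data known, and the rule for named genes took up to 4 called genes with the smallest p from each list, all genes of lists of 3 or fewer, and the 3 genes nearest to Myc and to Mxd4. Alternatives were quantile normalization, median centring, scaling to the mean of the poly-A controls, 32 added before log2, a floor of 50, no dim filter or one at the 70th percentile, no trend, array weights, 1 probe set per gene, a threshold of 0.01, blocking on the replicate number, the mean of a gene's passing probe sets (for differences to Myc) and dropping 1 array at a time. In a test on simulated data for NADA against vehicle with 22519 probe sets, of which 200 changed, the share recovered was 28.0% for a 1.2-fold change, 64.0% for 1.3-fold, 84.0% for 1.5-fold and 100% for 2-fold. In the data 70.6% of probe sets were called, far more than changed in the simulation. These shares therefore check the code and do not give the power of this comparison. The number of arrays, 3 per group, limits the precision. Plots were drawn with matplotlib 3.10.9.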

Additional observations from a re-analysis of the deposited data

Results flagged for a closer look

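The dim Mxd4 probe set 1422575_at, which was left out of the test, was higher in every NADA array, with a mean intensity of 30.4 in NADA and 22.1 in vehicle. The bacterial poly-A control probe sets, which enter comparisons of genes only through the poly-A scale, were 0.58 higher on the log2 scale in NADA than in vehicle. Groups of 3 arrays are too small for a test of single outlying samples.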

How the results depend on the processing

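Scaling to the poly-A controls was the alternative with the widest effect. It gave 1426 probe sets higher and 17057 lower (as deposited 7747 and 8151), 3 member probe sets higher and 15 lower (9 and 8), and 5 list genes higher (14). It turned Mycn 1425922_a_at to -0.38, Mxd1 1455104_at to -0.14 and 1422002_at to -0.50, Mxi1 1450376_at to -0.049 and 1425732_a_at to -0.42, Mnt 1418192_at to -0.55, Mga 1434746_at to -0.52, Mlxip to -0.12, Sin3b to -0.44, Sap130 to -0.37, Rnf2 to -0.34, Btrc to -0.077, Ppp2r5a to -0.36 and Gsk3b to -0.48, by its construction as a shift of -0.58. Mnt also turned to -0.010 with median centring, and ran from -0.020 (without NADA replicate 1) to 0.087 when 1 array was left out. Median centring further ended the calls of Mycn 1425922_a_at and Mxi1 1425732_a_at and, at 0.063, of Gsk3b, which the fit without a trend did not call either (adjusted p = 0.0761). With a filter at the 70th percentile 10 member probe sets were called, 5 higher and 5 lower, of 13 tested. With 1 probe set per gene the counts were 7719 in all, 3768 higher and 3951 lower, and 7 members, 3 higher and 4 lower, since fewer probe sets are tested. Leaving out 1 array gave 14977 to 15817 probe sets called (7213 to 7829 higher, 7697 to 8056 lower), 14 to 16 member probe sets (7 to 9 higher, 6 to 9 lower) and 73 to 78 list genes (12 to 14 higher, 61 to 64 lower). In these fits Mxd4 minus Myc ran from 2.31 to 2.35, Mxd1 minus Myc from 0.97 to 1.13 and Mxi1 minus Myc from 0.83 to 0.92. With all passing probe sets averaged, Mlx minus Myc turned to -0.063, Mycn minus Myc moved to 0.59, Mga to 0.21 and Mxd3 to 0.05, by the other probe sets that enter the mean. Same-numbered samples deviated from their group means with correlations of 0.195, -0.100 and 0.015, so the numbers were not taken as pairs. With the replicate number as a block 15912 probe sets and 17 member probe sets were called, and no call of a member changed. The other alternatives, quantile normalization, 32 added, the floor of 50, no filter, no trend, array weights and an adjusted p under 0.01, kept the direction of every member probe set and, of the calls, changed only those of Mycn 1425922_a_at and 1425923_at, Mxd3 1422970_at, Mxi1 1425732_a_at and Mnt 1418192_at among members, and moved no count of calls by more than 1.5 times.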
